A study of Mus musculus with 34 samples.

Results

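The genes of the cell cycle and of DNA replication were followed across the neocortex and hippocampus of mice injected with kainate, nicotine or saline. They were taken by symbol: the MCM helicase subunits Mcm2 to Mcm7, cyclins A, B, D and E, the symbols that begin with Cdk, Cdkn or Cdc and their number, the E2F factors, the subunits of polymerases alpha, delta and epsilon, replication factor C, Pcna, Top2a, Mki67, Rrm1 and Rrm2. This gave 85 of the 8251 genes named by a single symbol on the array, measured by 113 of 12422 probe sets. Where a gene had several probe sets, which was so for 26 genes, the one with the highest mean log2 signal represents it. Taking genes by symbol also brought in 17 genes that were matched by name and fall outside the cell cycle roles used here. Among them are the small GTPase Cdc42 and its binding proteins, but also Cdk2ap1, which binds Cdk2. These 17 genes are counted among the members and form a role of their own. Cyclin B1 (Ccnb1) had no probe set of its own.

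Male mice were injected intraperitoneally on postnatal day 23 with kainate (15 mg/kg), nicotine (10 mg/kg) or saline, 3 times at 2 h intervals, and the survivors were killed at postnatal day 30. Kainate excites glutamate receptors and provokes seizures, and nicotine activates nicotinic acetylcholine receptors. Each region had 5 kainate, 6 nicotine and 6 saline arrays, 34 in all, of whole dissected tissue, each from 1 mouse. The arrays of both regions came from the same mice, so 34 arrays do not mean 34 mice. Strain and genotype are not given in the sources used here.

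As background, a dividing cell loads the hexameric MCM helicase onto its origins in G1, and D-type and E-type cyclins with their kinases then release E2F factors, which switch on the genes of the replication machinery. Cyclins A and B with Cdk1 carry the cell through mitosis, and the CDK inhibitors of the Cdkn family hold these kinases back. Most neurons of the juvenile brain have left the cycle for good. Dividing cells persist in the dentate gyrus of the hippocampus and among glia, and several kinases of the family, above all Cdk5, serve neurons that no longer divide.

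The 250 bases before the transcription start are shown for 4 members: Mcm5 and Cdk1 carry the promoter elements typical of replication and mitotic genes, Cdkn1a had the largest of the differences between the saline regions that were called, and Cdk14 was called in the kainate hippocampus. The sequences are from RefSeq on GRCm38.p6, 5′ to 3′ on the strand of the gene. Capitals mark an E2F-type motif and CCAAT in Mcm5, the E2F-type motif and the letters of the cell cycle homology region in Cdk1, and the paired core of a p53 response element in Cdkn1a. For Cdkn1a the first of 2 listed starts is given. Cdk14 held none of the motifs searched, which says only that these letters are not in this window, and is in lower case.
Mcm5 (chr8:75109259-75109508, plus strand): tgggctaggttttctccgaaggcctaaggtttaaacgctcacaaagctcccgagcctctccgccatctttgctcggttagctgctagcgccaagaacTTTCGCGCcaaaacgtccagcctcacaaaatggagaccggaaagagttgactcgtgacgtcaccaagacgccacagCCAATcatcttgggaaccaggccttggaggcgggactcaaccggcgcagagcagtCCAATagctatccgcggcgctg
Cdk1 (chr10:69352913-69353162, minus strand): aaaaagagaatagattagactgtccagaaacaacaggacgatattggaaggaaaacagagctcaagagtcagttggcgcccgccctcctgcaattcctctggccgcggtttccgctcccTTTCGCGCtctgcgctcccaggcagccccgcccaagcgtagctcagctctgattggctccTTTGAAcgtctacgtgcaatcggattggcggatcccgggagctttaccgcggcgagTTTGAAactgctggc
Cdkn1a (chr17:29090729-29090978, plus strand): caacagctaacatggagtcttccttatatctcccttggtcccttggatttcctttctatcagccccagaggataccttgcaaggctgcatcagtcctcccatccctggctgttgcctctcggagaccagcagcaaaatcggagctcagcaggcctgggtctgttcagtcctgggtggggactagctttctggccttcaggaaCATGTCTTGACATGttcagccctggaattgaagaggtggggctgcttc
Cdk14 (chr5:5380252-5380501, minus strand): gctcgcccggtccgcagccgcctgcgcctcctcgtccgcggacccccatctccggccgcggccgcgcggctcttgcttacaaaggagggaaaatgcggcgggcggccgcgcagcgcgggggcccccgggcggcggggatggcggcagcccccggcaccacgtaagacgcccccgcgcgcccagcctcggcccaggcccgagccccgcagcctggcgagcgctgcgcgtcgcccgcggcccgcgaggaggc

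RefSeq promoters were at hand for 72 of the 85 members and for 27025 genes in all, and each motif was searched on both strands of the 250 bases before every listed start. No motif holds another. An E2F-type motif (TTTCCCGC, TTTGGCGC, TTTCGCGC or TTTGCCGC) was found in 12 of 72 members (16.7%), against 2.16% of all genes. The 12 were Mcm5, Mcm6, Mcm7, Cdk1, Cdk2, Cdc6, Cdc25a, E2f3, Pola1, Pole4, Rfc3 and Cdkn2a. CCAAT was in 39 of 72 members (54.2%), against 37.5% of all genes, and in each of the 5 MCM genes with a promoter. The cell cycle homology letters TTTGAA were in 15 of 72 (20.8%), against 18.3% of all genes. The paired p53 core CATGNNNNNNCATG was found in Cdkn1a, 1 of 72 members (1.39%), against 0.57% of all genes. These shares describe letters, and the arrays did not measure binding.

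Array signals were MAS5 intensities scaled by the authors, and fold changes were taken as log2(signal + 16). The dimmest 30% of probe sets by mean, those under a signal of about 130, were not tested, and the others were called at an adjusted p under 0.05 in limma. In the hippocampus 72 of the 85 members passed this filter and in the neocortex 73. Below it in both regions lay Ccna1, Ccnb1ip1, Ccne2, Cdc73, Cdk1, Cdkn1b, Cdkn2b, Cdkn3, Mcm6, Pole2, Rfc4 and Top2a, and in the hippocampus also E2f8. The tested members varied between arrays of a group about as the whole array did, with a median pooled SD of 0.28 on the log2 scale for 73 members and 0.28 for 8695 probe sets. Their own range was wide. The pooled SD was 0.09 for Cdk16 and 0.11 for Cdk5, both bright, and 0.79 for Rrm1 and 0.82 for Cdk5r2. By the 9 spiked-in hybridisation controls the arrays of each region were cut into 3 clusters. That number was set, not found, and each cluster held arrays of all treatments. The median signal of an array was 403.4 to 438.5 in the kainate hippocampus and 381.0 to 391.2 in the saline hippocampus, so the scaling bears on this comparison.

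In the kainate hippocampus 2 of 72 members were called against saline, Cdk14 and Cdc42se2, both lower, and 0 were called higher. Of all 8695 probe sets 2.79% were called, 1.84% higher and 0.955% lower, so the share of members called was near that of the array. No gene of the replication machinery, no cyclin and no CDK inhibitor was called. Before adjustment 17 of 72 members had p under 0.05 (23.6%), 8 higher and 9 lower, against 14.2% of all probe sets. The median log2 fold change was 0.03 over the members and 0.01 over all probe sets. In bulk tissue, fewer cells of a type and less RNA per cell cannot be told apart.

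**Figure D1:**
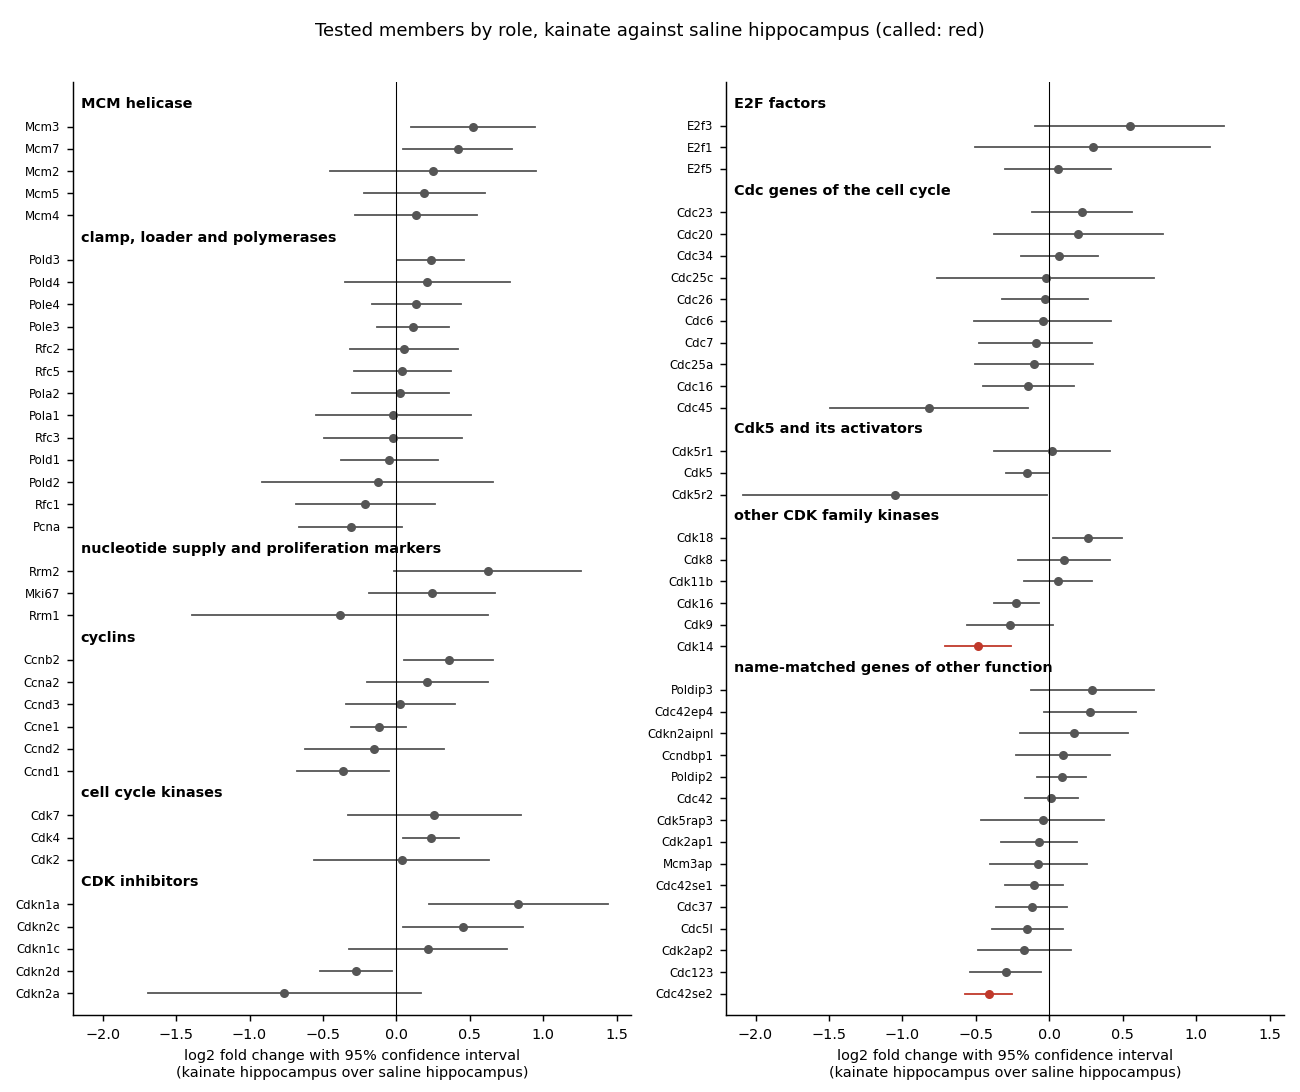
Log2 fold change of kainate hippocampus over saline hippocampus for the 72 tested members, grouped by role. Points are limma estimates, lines their 95% confidence intervals, and the 2 called members, Cdk14 and Cdc42se2, are red.

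Cdk14 (chr5:4803384-5380251 on GRCm38.p6), a PFTAIRE kinase that pairs with cyclin Y at the plasma membrane, had signals of 2987.3, 2150.6, 2345.6, 2264.4 and 3014.9 in the kainate hippocampus. In the saline hippocampus its lowest, median and highest signals were 3099.7, 3552 and 4290.6. All 5 kainate arrays lay below all 6 saline arrays, replicates 1 and 5 only just. Its level fell 1.4-fold, a log2 fold change of −0.49 ± 0.11 (SE, adjusted p = 0.0114 in limma, 95% interval −0.71 to −0.26). The nicotine hippocampus lay between, with 2897.1, 3208.9 and 3584.4 as lowest, median and highest, and did not pass the test against saline (−0.14 ± 0.10 SE, adjusted p = 0.892). In the neocortex Cdk14 averaged 2591 ± 250 (SD, n = 5) with kainate and 2426 ± 181 (SD, n = 6) with saline. The kainate hippocampus averaged 2553 ± 415 (SD, n = 5) and the saline hippocampus 3566 ± 451 (SD, n = 6).

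A second, dimmer Cdk14 probe set did not show the difference. It had signals of 428.5, 611.4, 771.4, 738.8 and 527.0 in the kainate hippocampus, and 267.0, 672 and 902.9 as lowest, median and highest in the saline hippocampus, and the groups overlapped. Its log2 fold change was 0.02 ± 0.24 (SE, adjusted p = 0.985), with a 95% interval of −0.48 to 0.52 that reaches into that of the brighter probe set. Within the control clusters the brighter probe set gave kainate minus saline differences of −0.05 (1 array against 1), −0.70 (3 against 3) and −0.26 (1 against 2).

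Cdc42se2, a small protein that binds the GTPase Cdc42 and is no cell cycle gene, had signals of 3250.5, 3427.6, 3018.0, 3368.7 and 3188.5 in the kainate hippocampus. In the saline hippocampus they were 3841.2, 4203 and 5009.9 as lowest, median and highest, and the groups did not overlap. The log2 fold change was −0.41 ± 0.08 (SE, adjusted p = 0.00241), 1.33-fold lower. The differences within the 3 control clusters were −0.34, −0.46 and −0.39. Cdc42 itself gave 0.01, and its other binding proteins Cdc42se1 and Cdc42ep4 gave −0.11 and 0.28, none of them called. In the neocortex Cdc42se2 averaged 3693 ± 167 (SD, n = 5) with kainate and 3810 ± 560 (SD, n = 6) with saline, and the groups overlapped. Of the tested members 3 did not overlap between kainate and saline hippocampus, Cdk14, Cdc42se2 and Cdkn1a, beside 3.5% of all probe sets.

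**Figure D2:**
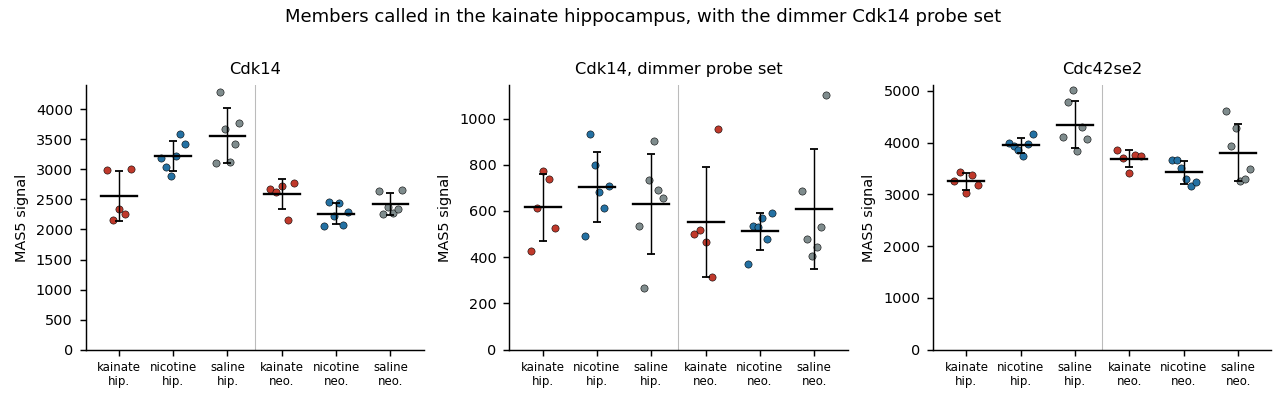
MAS5 signal of each array (points) with group mean and SD (lines) in 6 groups for Cdk14, its dimmer probe set and Cdc42se2. In the hippocampus (hip.) the kainate arrays lie below every saline array for Cdk14 and Cdc42se2, and overlap them for the dimmer Cdk14 probe set. In the neocortex (neo.) the groups overlap.

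Markers of glia moved in the same arrays. Of 13 tested microglia and macrophage markers 12 were called higher in the kainate hippocampus, and the summed signal of the 16 measured was 42360 to 68585 with kainate and 15833 to 17033 with saline. Astrocyte markers were called higher in 4 of 8 (Gfap, Aqp4, Clu and Gja1), with sums of 83082 to 98999 and 50196 to 56700. Over kainate replicates 1 to 5 the microglial sums were 68585, 68520, 42360, 50760 and 68142. Replicates 3 and 4 had the lowest of these sums and Cdk14 signals of 2345.6 and 2264.4, and replicates 1 and 5 had high sums and the highest Cdk14 signals, while replicate 2 had a high sum and the lowest Cdk14 signal. None of 6 neuronal, 7 endothelial, 2 oligodendrocyte precursor or 8 neural progenitor and newborn neuron markers was called there. The neuronal sums were 48763, 49315 and 54951 as lowest, median and highest with kainate. With saline they were 46102, 57510 and 60774, so the groups overlapped. The sums of the 11 measured progenitor markers were 8863 to 10894 with kainate and 7645 to 8847 with saline, and those of the 2 precursor markers 3394 to 4670 and 3261 to 4831. Of 3 tested blood markers Ighm, the immunoglobulin heavy chain, was called higher. The 5 progenitor sums with kainate all lay above the 6 with saline, by the small gap between 8863 and 8847. In the saline neocortex the sums of the same 11 genes were higher, at 10300 to 12645. The list includes Tbr1, also a gene of deep cortical layers, which was 2.75-fold higher in the saline neocortex than in the saline hippocampus. It also includes Prox1 of dentate granule cells, which was 3.07-fold lower there. The sum therefore does not compare progenitors alone between the regions. The part of the cells marked by these lists in the values of the members was not tested.

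The MCM genes encode the helicase that opens the DNA at the replication fork. Each of the 5 tested had a positive log2 fold change in the kainate hippocampus, with a median of 0.25 (0.14 after median centring of the arrays, again with 5 positive), and none passed the test. Mcm3 had signals of 547.0, 426.8, 715.5, 450.3 and 534.4 with kainate and 227.0, 390 and 469.7 as lowest, median and highest with saline. Of its kainate arrays 3 lay above every saline array, and the log2 fold change was 0.52 ± 0.20 (SE, adjusted p = 0.215). A dimmer Mcm3 probe set lay below the filter, and its groups overlapped, at 55.5 to 222.4 with kainate and 40.8 to 170.4 with saline. Mcm7 had 412.3, 506.8, 569.5, 625.5 and 467.4 with kainate, against 291.8, 416 and 428.7 with saline, a log2 fold change of 0.42 ± 0.18 (SE, adjusted p = 0.273). For Mcm7 the groups overlapped by the single kainate replicate 1. Mcm2, Mcm5 and Mcm4 gave 0.25 ± 0.34, 0.19 ± 0.20 and 0.13 ± 0.20 (SE, adjusted p at least 0.73). A dimmer Mcm5 probe set gave −0.56 ± 0.48 (SE). Mcm6 lay below the filter, with signals of 4.9 to 96.9 with kainate and 9.7 to 126.5 with saline. In the neocortex the 5 MCM genes ranged from −0.16 to 0.10 after kainate, and the difference between the regions was not called for any of them (smallest adjusted p = 0.719).

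The clamp Pcna, which holds the polymerases on DNA and is widely used to mark proliferating cells, had signals of 796.5, 903.2, 532.2, 489.8 and 856.3 in the kainate hippocampus, against 762.3, 889 and 976.7 as lowest, median and highest in the saline hippocampus. Kainate replicates 3 and 4 were below all saline arrays and the others within them. The log2 fold change was −0.31 ± 0.17 (SE, adjusted p = 0.422). The clamp, its loader and the polymerase subunits together had 13 tested members, 7 with positive and 6 with negative values and a median of 0.03, which turned to 4 and 9 and −0.09 after median centring. Pold3, an accessory subunit of polymerase delta, gave 0.23 ± 0.11 (SE). Pold3, the catalytic Pold1 (−0.05), Pola1 (−0.02), Pole3 (0.11) and the loader subunits Rfc1 (−0.21), Rfc2 (0.05), Rfc3 (−0.03) and Rfc5 (0.04) had adjusted p of at least 0.341.

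Of the genes for nucleotide supply and proliferation markers, Rrm2, the subunit of ribonucleotide reductase made in S phase, had 175.6, 207.6, 420.8, 203.8 and 191.2 in the kainate hippocampus, against 84.9, 155 and 214.6 as lowest, median and highest in the saline hippocampus. Kainate replicate 3 stood far above the other 4, and those 4 lay within the saline range. The log2 fold change was 0.62 ± 0.30 (SE, adjusted p = 0.367). Mki67, the Ki-67 antigen of cycling cells, had 254.9 to 396.2 with kainate and 197.6 to 325.1 with saline (0.24 ± 0.21 SE, adjusted p = 0.653, 95% interval −0.19 to 0.67). The dimmer Mki67 probe set lay below the filter, at 13.2 to 126.4 with kainate and 7.2 to 49.3 with saline. Rrm1, the partner subunit, gave −0.39 ± 0.48 (SE). Top2a, the topoisomerase of mitotic cells, stayed at 20.5 to 73.7 with kainate and 26.3 to 81.9 with saline, below the filter.

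**Figure D3:**
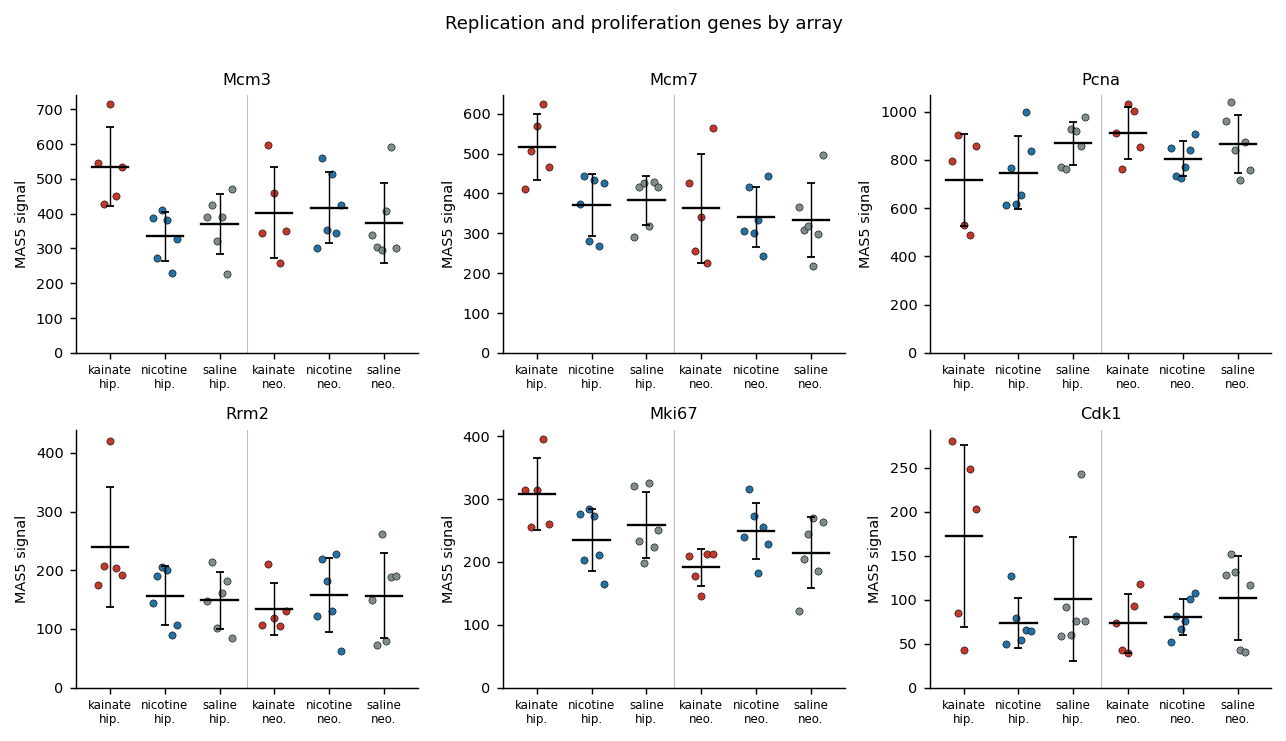
MAS5 signal of each array (points) with group mean and SD (lines) in 6 groups for Mcm3, Mcm7, Pcna, Rrm2, Mki67 and Cdk1. The kainate hippocampus has the highest mean for Mcm3, Mcm7, Rrm2, Mki67 and Cdk1, but not for Pcna. None of them was called, and Cdk1 lay below the filter. In the hippocampus Rrm2 holds a single kainate array far above the rest (420.8). Cdk1 holds several high kainate arrays (202.5, 248.7 and 280.0) and a single high saline array (242.5).

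The cyclins showed no common direction. Of 6 tested cyclins 3 were positive and 3 negative, or 2 and 4 after median centring. Ccnb2, a mitotic cyclin, had 811.6, 592.3, 835.1, 790.3 and 736.7 in the kainate hippocampus, against 426.4, 592 and 709.3 as lowest, median and highest in the saline hippocampus, and 4 of 5 kainate arrays lay above all saline arrays (0.36 ± 0.15 SE, adjusted p = 0.251). Ccna2, the S phase cyclin, gave 0.21 ± 0.20 and overlapped with saline. Among D-type cyclins, which start the cycle in answer to growth factors, Ccnd1 gave −0.36 ± 0.15 (SE, adjusted p = 0.256), Ccnd2 −0.15 ± 0.23 and Ccnd3 0.03 ± 0.18. The dimmer Ccnd1 probe set gave 0.37 ± 0.34, so the sign for Ccnd1 differed between its probe sets. Cdk4, the kinase of the D-type cyclins, was at 2356 to 2641 with kainate and 1732 to 2525 with saline (0.24 ± 0.09 SE, adjusted p = 0.226). The 3 tested cell cycle kinases, Cdk2, Cdk4 and Cdk7, were all positive, or 2 of 3 after median centring, and none was called. Cdk1, the mitotic kinase, had 280.0, 84.9, 42.7, 248.7 and 202.5 with kainate, against 58.1, 75.5 and 242.5 with saline. The 3 high kainate arrays lay at or near the single high saline array, and without the filter its log2 fold change was 0.60 ± 0.42 (SE, adjusted p = 0.632).

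Among the CDK inhibitors, Cdkn1a (p21, a target of p53) had 602.8, 556.5, 882.0, 695.7 and 636.1 in the kainate hippocampus. In the saline hippocampus it had 131.1, 424 and 555.7 as lowest, median and highest. The groups did not overlap, by the small gap between 556.5 and 555.7, and saline replicate 2 was far below the rest. The log2 fold change was 0.83 ± 0.29 (SE), which did not pass (adjusted p = 0.162). The dimmer Cdkn1a probe set gave −0.09 ± 0.32 (SE), the other sign. Cdkn2c (p18) gave 0.45 ± 0.20 and Cdkn2d (p19) −0.28 ± 0.12 (SE), with adjusted p of 0.288 and 0.27. Cdkn1c (p57) gave 0.21 ± 0.26 and Cdkn2a, which encodes p16 and p19Arf, −0.76 ± 0.45 (SE) at signals of 60.5 to 206.4 with kainate and 127.9 to 326.2 with saline. Cdkn1b (p27) and Cdkn2b (p15) lay below the filter.

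Further large values in the kainate hippocampus belonged to dim probe sets. Cdk5r2, which encodes the Cdk5 activator p39, gave −1.05 ± 0.50 (SE, adjusted p = 0.341), and Cdc45, a partner of the MCM helicase at the fork, −0.82 ± 0.32 (SE, adjusted p = 0.227). In Cdc45 kainate replicate 2 had 347.3 and the other 4 arrays 79.2 to 102.6, against 118.5 to 342.4 with saline. E2f3 gave 0.55 ± 0.31 (SE, adjusted p = 0.449), E2f1 0.30 ± 0.38 and E2f5 0.06 ± 0.18. Cdk5 itself, which phosphorylates neuronal substrates and drives no cell cycle, was bright and tight at 3676 to 4043 with kainate and 3873 to 4566 with saline (−0.15 ± 0.07 SE, adjusted p = 0.303). Cdk16, a PCTAIRE kinase abundant in neurons, gave −0.22 ± 0.07 (SE, adjusted p = 0.13). Where a dimmer probe set of a member was tested it had the sign of the brighter one in 6 of 14 cases.

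Whether the kainate effect differed between the regions was tested as an interaction over all 34 arrays, treated as independent though the regions share mice. Cdk14 was called, with a difference between the log2 fold changes of −0.58 ± 0.13 (SE, adjusted p = 0.0226), with −0.49 in the hippocampus and 0.09 in the neocortex. It was 1 of 73 members, beside 0.794% of all probe sets. Cdc42se2 did not pass (−0.38 ± 0.11 SE, adjusted p = 0.153), nor did Cdkn1a (1.11 ± 0.33, adjusted p = 0.156) or Ccnb2 (0.59 ± 0.19, adjusted p = 0.212). The Cdk14 call was lost when kainate hippocampus replicate 2 or 4 or kainate neocortex replicate 3 or 5 was left out (adjusted p = 0.0731, 0.0538, 0.0507 and 0.0509). It was also lost when the fit held the compared groups only (adjusted p = 0.0738).

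**Figure D4:**
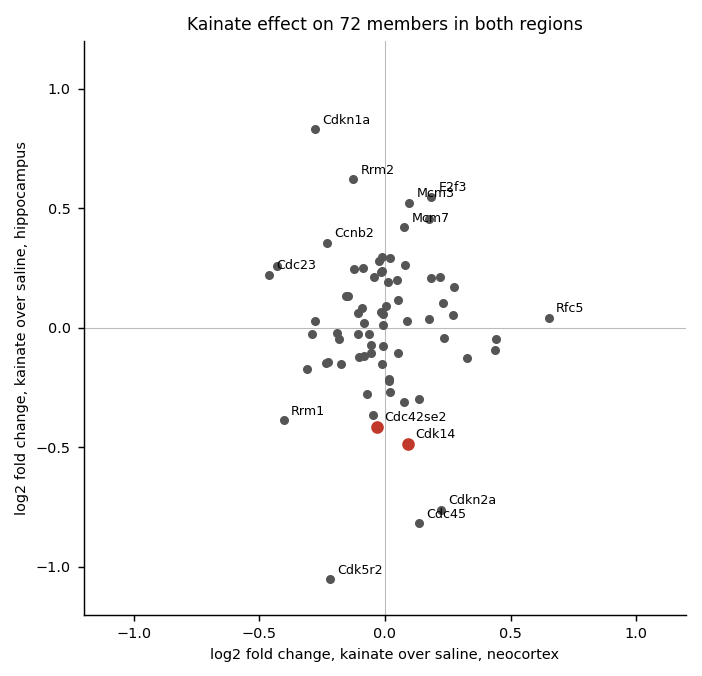
Log2 fold change of kainate over saline for the 72 members tested in both regions, with the hippocampus on the vertical and the neocortex on the horizontal axis. Cdk14 and Cdc42se2 (red) were called in the hippocampus, and no member was called in the neocortex.

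In the kainate neocortex 0 of 73 members were called by limma against saline, where 0.0115% of all probe sets were, and 5 of 73 had an unadjusted p under 0.05, beside 5.57%. Rfc5 of the clamp loader (0.65 ± 0.28 SE), the licensing factor Cdc6 (0.44 ± 0.33) and Cdc7 (0.44 ± 0.19) had the highest log2 fold changes. Cdc23, a subunit of the anaphase-promoting complex, gave −0.46 ± 0.16 (SE), with signals of 425.2 to 613.1 with kainate and 580.4 to 1086 with saline. Cdk7, the CDK-activating kinase, gave −0.43 ± 0.31 and Rrm1 −0.40. The smallest adjusted p was 0.811. Rfc5 had a single saline array at 105.9, and the saline median was 415, against 415.9 to 706.8 with kainate.

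In the nicotine hippocampus 0 of 72 members were called by limma against saline (0% of all probe sets), and 4 of 72 had an unadjusted p under 0.05, beside 5.8%. Ccne1, an activator of Cdk2 in late G1, gave −0.25 ± 0.09 (SE, adjusted p = 0.851) at 1233 to 1590 with nicotine and 1565 to 1943 with saline. Ccnb2 gave 0.36 ± 0.14 and Ccnd1 −0.33 ± 0.14. The kainate values for these 2 cyclins were 0.36 and −0.36, and both comparisons share the saline arrays. The highest values were E2f3 (0.55), Cdkn1a (0.46) and Cdk7 (0.45), and the lowest Cdkn2a (−0.87), the mitotic phosphatase Cdc25c (−0.72) and Pold2 (−0.44). In the nicotine neocortex 0 of 73 were called (0% of all probe sets), and 3 of 73 had an unadjusted p under 0.05, beside 9.6%. Mcm2 (0.42), Rfc5 (0.40) and Cdc7 (0.38) were highest there, and Cdc25c (−0.55), Pold1 (−0.46) and Rrm1 (−0.40) lowest. The difference of the nicotine effect between the regions passed the test for no member (0 of 73 called by limma, 0% of all probe sets, 4 of 73 at an unadjusted p under 0.05, beside 3.77%).

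Set directly against nicotine, kainate gave 0 of 72 called members in the hippocampus, where 2.42% of all probe sets were called, and 9 of 72 with an unadjusted p under 0.05, beside 11%. Cdc42se2 was closest (−0.28 ± 0.08 SE, adjusted p = 0.064), with 3018 to 3428 after kainate and 3751 to 4172 after nicotine. Cdk16 followed (−0.26 ± 0.07, adjusted p = 0.0906), then Cdc45 (−1.07 ± 0.32, 0.107), Cdk14 (−0.35 ± 0.11, 0.119) and Mcm3 (0.66 ± 0.20, 0.12). The groups did not overlap for 3 of 72 members, beside 2.92% of all probe sets: Cdc42se2, Cdk16 (3338 to 4215 after kainate and 4263 to 5065 after nicotine), both lower, and Mcm3 (426.8 to 715.5 and 229.2 to 410.7), higher. The dimmer Mcm3 probe set, below the filter, overlapped between these groups, at 55.5 to 222.4 after kainate and 30.8 to 206.9 after nicotine. In the neocortex 0 of 73 were called, beside 0.0345% of all probe sets, and 3 of 73 had an unadjusted p under 0.05, beside 3.99%. Cdkn1a had the smallest adjusted p there, at 828.9 to 1106 with kainate and 989.4 to 1644 with nicotine, which overlap (−0.44 ± 0.13 SE, adjusted p = 0.871).

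Normal tissue was compared between the saline arrays of the regions, treated as independent though the regions share mice. Of 73 members 2 were called higher and 5 lower in the saline hippocampus than in the saline neocortex, beside 10.5% of all probe sets, 5.36% higher and 5.19% lower, so the members again stood near the array. The same 7 were the members that did not overlap between the regions, beside 6.21% of all probe sets. Some cell type markers differed too. Of 8 tested astrocyte markers 3 were called higher in the saline hippocampus (Gfap, Aqp4 and Clu), and of 6 neuronal markers 2 lower (Snap25 and Camk2a). Of 8 tested progenitor and newborn neuron markers 1 was called higher, Prox1 of dentate granule cells, and 1 lower, Tbr1 of deep cortical layers. Of 3 tested blood markers Ighm was called lower. Of 12 microglia and macrophage, 7 endothelial and 2 oligodendrocyte precursor markers 0 were called. The part of these cell types in the differences below was not tested.

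Cdkn1a (chr17:29090979-29100722) had 131.1, 424 and 555.7 as lowest, median and highest in the saline hippocampus and 1043.2, 1140 and 1372.2 in the saline neocortex. Every hippocampal array lay below every neocortical one, 3.12-fold in the fit (log2 fold change −1.64 ± 0.22 SE, adjusted p = 1.07e-06). Its dimmer probe set was also called lower, with 189.4 to 472.0 in the saline hippocampus and 833.6 to 1146 in the saline neocortex (−1.68 ± 0.24 SE). With kainate the regions overlapped in the brighter probe set, at 556.5 to 882.0 in the hippocampus and 828.9 to 1106 in the neocortex. They did not overlap in the dimmer one, at 140.7 to 518.8 in the hippocampus and 654.4 to 865.0 in the neocortex. For either probe set the difference of the kainate effect between them did not pass the test.

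E2f1 (chr2:154559400-154569892), an activating E2F factor, had 92.2, 271 and 337.4 in the saline hippocampus and 362.7, 446 and 720.0 in the saline neocortex (2-fold lower, adjusted p = 0.0247). Its probe set is of a kind that can match a family of transcripts, and the call was lost without saline hippocampus replicate 6 (adjusted p = 0.0988) or saline neocortex replicate 3 (0.0554) or 4 (0.072). Cdk5r1 (chr11:80477023-80481184), which encodes the neuronal Cdk5 activator p35, had 999.6, 1413 and 1972.5 in the saline hippocampus and 2135.8, 2339 and 3070.0 in the saline neocortex (−0.78 ± 0.15 SE, adjusted p = 0.000291). Cdk5 itself gave −0.01 ± 0.07 (SE, adjusted p = 0.943). Cdk16 (chrX:20687917-20699880) had 4048.4, 4491 and 4724.5 in the saline hippocampus, against 5866.9, 6037 and 6397.9 in the saline neocortex (−0.44 ± 0.06 SE, adjusted p = 3.01e-06). Cdk2ap1 (chr5:124345439-124354628), a protein that binds Cdk2, averaged 3053 ± 357 in the saline hippocampus and 4515 ± 901 in the saline neocortex (SD, n = 6 each, −0.55 ± 0.12 SE, adjusted p = 0.00195).

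Higher in the saline hippocampus were Cdc7 and Cdk14. Cdc7 (chr5:106964315-106984440), the kinase that fires origins by phosphorylating the MCM helicase, had 309.1, 338 and 376.8 there and 151.4, 197 and 233.2 in the saline neocortex, 1.73-fold (0.79 ± 0.17 SE, adjusted p = 0.000873). In the drug groups the regions overlapped for Cdc7, at 260.7 to 384.7 in the hippocampus and 213.7 to 339.0 in the neocortex with kainate, and at 218.9 to 430.7 and 204.1 to 319.4 with nicotine. Cdk14 was 1.46-fold higher in the saline hippocampus (0.55 ± 0.09 SE, adjusted p = 3.26e-05), with 3099.7 to 4290.6 there and 2266.0 to 2661.7 in the saline neocortex. Its dimmer probe set was not called, and the saline regions overlapped, at 267.0 to 902.9 in the hippocampus and 406.5 to 1102.3 in the neocortex. None of the 5 tested MCM genes passed the test between the saline regions, with values of −0.09 to 0.21 and a smallest adjusted p of 0.609.

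**Figure D5:**
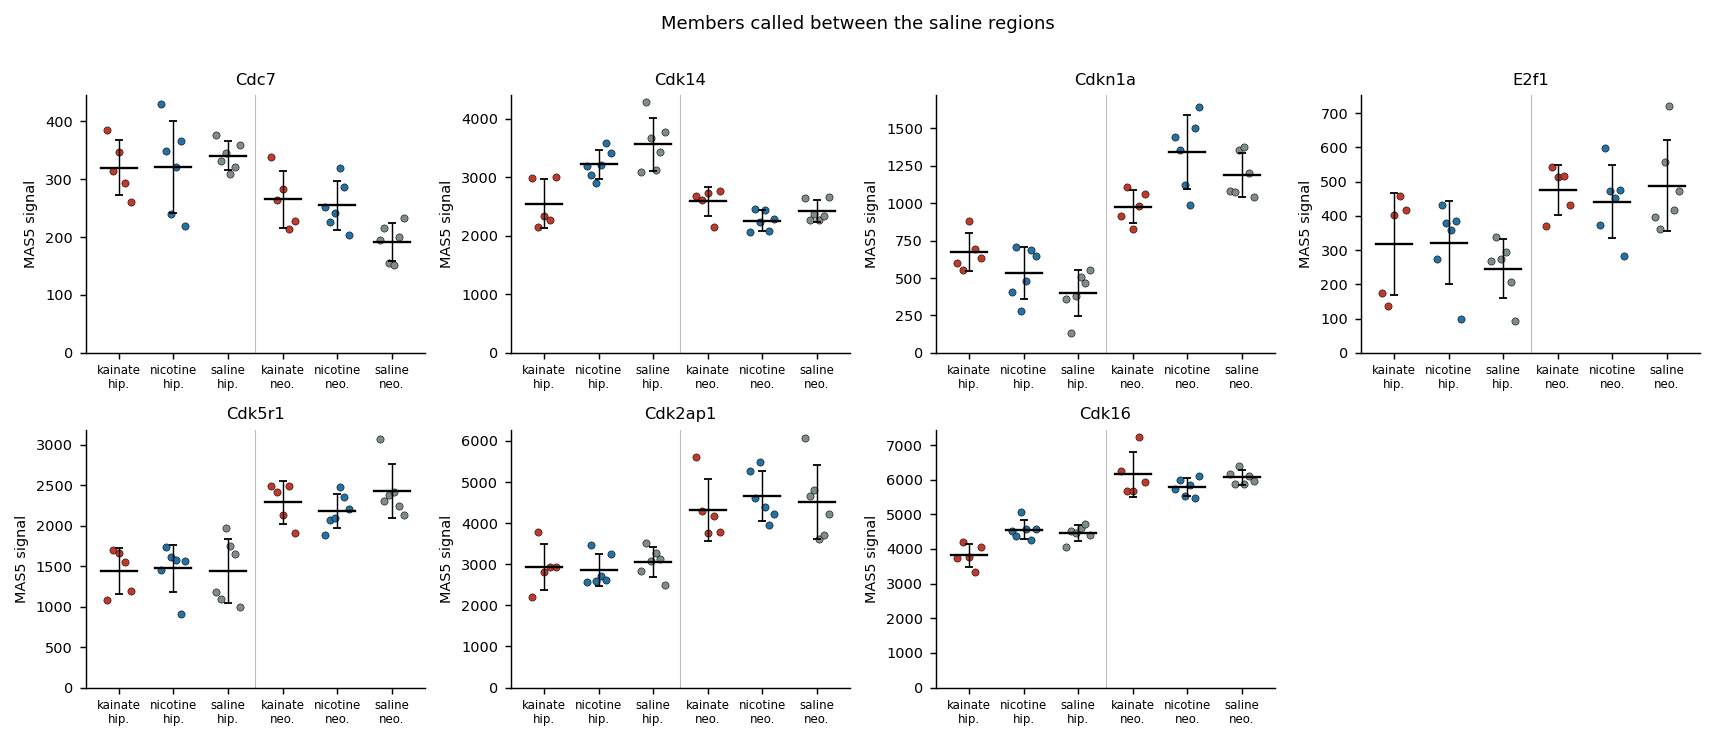
MAS5 signal of each array (points) with group mean and SD (lines) in 6 groups for the 7 members called between saline hippocampus and saline neocortex. Cdc7 and Cdk14 are higher in the saline hippocampus (hip.), and Cdkn1a, E2f1, Cdk5r1, Cdk2ap1 and Cdk16 higher in the saline neocortex (neo.).

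Beyond the members, 71 of 87 further genes of the pathway were measured, among them checkpoint kinases, origin proteins, kinesins of mitosis and targets of p53. Of the 53 tested in the hippocampus 0 were called for kainate and 0 for nicotine against saline, with medians of 0.06 and 0.08. Of all probe sets 2.79% and 0% were called there. Of the 51 tested in the neocortex 0 were called for either drug, beside 0.0115% of all probe sets for kainate and 0% for nicotine. Between the saline regions 2 of 51 were called higher in the hippocampus, beside 5.36% of all probe sets. They were Btg1, an antiproliferative factor (0.66), and Rpa1, which coats single-stranded DNA (0.55). Called lower were 2 of 51, the p53 target Gadd45a (−1.19) and Stmn1, which destabilises microtubules (−0.88), beside 5.19% of all probe sets. The kainate effect was more positive in the hippocampus for 1 of 51, the stress gene Gadd45g (0.90 ± 0.22 SE, adjusted p = 0.0407). Of all probe sets 0.794% were called in that comparison.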

How the data were processed

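RNA from neocortex and hippocampus was hybridised to Affymetrix arrays. The deposited values are linear intensity signals, computed by the authors (MAS5 is named in the submitters' processing notes), a method that combines the probes of a set and scales each array. The 2% trimmed means of the arrays were 1000.53 to 1000.62. Here the 66 control probe sets were dropped, 12422 kept, and log2(signal + 16) was fitted with limma 3.58.1 in R 4.3.3 (lmFit, eBayes with an intensity trend) on the 17 arrays of a region, or on all 34 for comparisons across regions, without scaling again. Probe sets under the 30th percentile were left out, and p-values were adjusted by Benjamini-Hochberg over the 8695 tested. Fold changes of dim genes are understated. Arrays of the 2 regions came from the same mice, but the labels do not tie arrays to mice. All were therefore treated as independent, and comparisons across regions leave this pairing out. Gene symbols came from the platform annotation, and all 85 matched RefSeq. Array pairs correlated at 0.916 to 0.969. The number of arrays limits the precision.

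Named were the called members, a fixed list of replication and proliferation markers, D-type cyclins and CDK inhibitors with Cdk5, and the 3 highest and 3 lowest values of each drug against saline. A few others are named as examples of a role or for an unadjusted p, chosen after their values were seen. Members and lists were chosen with earlier results of these data known. The fits were tested on simulated data, in which arrays were independent and changes exceeded those of the members called in the kainate hippocampus. That simulation does not show how well changes of the smaller size are found. Same-numbered arrays deviated together in every pair for kainate against nicotine hippocampus alone (r = 0.118 to 0.278 over 5 pairs). Alternatives were pseudocounts of 1 and 64, other filters, median centring, quantile normalization, a replicate block, array weights, another choice of arrays, any probe set of a gene and leaving out each array. Clusters of the arrays by the hybridisation controls, as a block or the largest alone, were added after seeing the data.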

Additional observations from a re-analysis of the deposited data

Results flagged for a closer look

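Among 192 groups of levels of 32 named members, 10 held an array that stood apart from the others of its group on the log2 scale (Dixon's test at 95%), and chance marks about 1 group in 20. In the kainate hippocampus Rrm2 was 420.8 in replicate 3, against 175.6 to 207.6 in the others. In the saline hippocampus Cdk1 was 242.5 in replicate 5, against 58.1 to 91.8, and Cdkn1a 131.1 in replicate 2, against 363.1 to 555.7. In the nicotine hippocampus Ccnd2 was 295.7 and Cdk5r1 908.7 in replicate 5, against 568.4 to 764.3 and 1451.0 to 1731.5, and E2f1 98.5 in replicate 6, against 273.0 to 432.2. In the kainate neocortex Cdk14 was 2155.7 in replicate 4, against 2620.9 to 2771.9. In the nicotine neocortex Ccnd3 was 745.6 in replicate 2, against 978.1 to 1131.4, and Cdkn1c 464.8 in replicate 3, against 259.2 to 309.3. In the saline neocortex Cdk5r1 was 3070.0 in replicate 1, against 2135.8 to 2409.3. Nicotine hippocampus replicate 5 was the array marked for more than 1 gene.

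The kainate effect on Cdk14 differed between hippocampus and neocortex by −0.58 on the log2 scale in the limma interaction test (adjusted p = 0.0226), in the direction of lower levels in the hippocampus, and its dimmer probe set was not called in any comparison.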

How the results depend on the processing

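The number of members called was within 1.5 times the reported one under most alternatives. For kainate against saline hippocampus it was 1 to 3, with the value 1 in the largest control cluster (Cdk14). The 3 calls under median centring added Cdk16, lower, those with all 34 arrays added Cdkn1a, higher, and those without kainate replicate 2 added Cdc45, lower. For kainate against nicotine hippocampus it was 2 with all 34 arrays (Cdk14 and Cdk16, lower) and 0 to 1 with an array left out. The 1 was Cdc45, without kainate replicate 2. For the difference of the kainate effect between regions it was 0 with the compared groups only and 0 to 2 with an array left out, where 2 came without saline neocortex replicate 1, which added Cdc42se2. Between the saline regions it was 6 to 9, and in the other 5 comparisons 0 throughout. With the replicate block the counts were 2 for kainate against saline hippocampus, 8 between the saline regions (Rfc5 added, higher) and 1 for the kainate difference between regions, and 0 elsewhere. Apart from kainate against nicotine hippocampus, the arrays share only a number, with pair correlations down to −0.172, so the block is no better design there. The block changed no other call.

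The log2 fold change of Cdk14 in the kainate hippocampus ran from −0.70 to −0.43 over 22 alternatives, and its adjusted p from 0.000992 to 0.0441. That of Cdc42se2 was lost in the largest control cluster alone (adjusted p = 0.15, range 0.00079 to 0.15), with 3 arrays a group, as was that of Cdc7 between the saline regions (0.0652, range 0.000664 to 0.0652). E2f1 was also lost when the clusters entered as a block (0.0521) and in the largest cluster (0.524, range 0.0104 to 0.524). The cause was not tested. None of the log2 fold changes of called members reversed. Median centring moved the median of all probe sets to −0.10 in the kainate hippocampus against saline, where 443 were called, 130 higher and 313 lower, instead of 243, 160 and 83. There the 5 MCM genes stayed positive with a median of 0.14, while the clamp, loader and polymerases went to −0.09 and the cyclins to −0.16. Dim probe sets limit the reading of Top2a, Mcm6, Cdk1 and Cdkn1b, which lay below the filter. Mki67 was tested by its brighter probe set only, as the dimmer one lay below the filter.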
